A study of Rattus norvegicus with 3 samples.

Results

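Early progenitor thymic epithelial cells were the 1018 cells that the authors labelled TEC:early Pr (early Pr below) in a droplet library of rat thymic stroma. They made up 7.70% of its 13226 annotated cells (exact Clopper-Pearson 95% interval 7.25 to 8.16) and 44.4% of its 2295 cells with an epithelial label. Every early Pr label was a projected one, that is, a label carried over from reference objects that were built with published mouse data, per the series' design text. The cells were compared with the 448 cells labelled cTEC (cortical epithelium) and the 482 labelled mTEC1 (a medullary epithelial label), 3.39% and 3.64% of the annotated cells.

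The animals were Lewis rats, which are inbred, at 8 weeks of age, and their thymi gave 3 samples, each the only one of its kind. The stromal library held CD45-negative cells, which lack the surface protein of blood-derived cells, released with Liberase TH and DNase I and then sorted. A thymocyte library (8546 annotated cells, released with collagenase D and DNase I) and a Stereo-seq section, 10 µm thick, completed the series. No genetic change or drug treatment is named in the labels, nor how many rats were pooled or their sex.

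Since each group had 1 sample, differences have no replicate check and are given without tests or p-values. The labels were assigned from the same transcripts that are described here, so a difference between labels is a description of these cells and not an independent finding. Levels are UMIs (unique molecular identifiers, each counting 1 captured RNA molecule) summed over the cells of a label per 1000000 UMIs of that label (CPM). Intervals are 95% intervals that cover counting error only. Early Pr cells held 12141555 UMIs in all, and the median cell had 10977 UMIs and 3723.5 genes. The medians were 10535 UMIs in cTEC and 11915.5 in mTEC1, so depth was alike at the median. The 2 droplet libraries shared 38 cell barcodes, 4 of them early Pr cells that were also annotated in the thymocyte library.

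The epithelium of the thymus forms a cortex, where developing T cells are selected for usable receptors, and a medulla, where self-reactive cells are removed. Both arise from shared progenitors under the transcription factor Foxn1, and epithelial progenitors persist after birth. Cortical cells are known for the proteasome subunit Psmb11, the protease Prss16 and the chemokine Ccl25, and medullary cells for the CCR7 ligands Ccl21 and Ccl19 and for Aire. Ackr4 is an atypical receptor that takes up those chemokines without signalling, Cldn11 is a tight junction claudin, and Bcl2 blocks cell death.

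The label was first set against its 3 markers. Ackr4 stood at 947 CPM in early Pr (930.1 to 964.8), 412 in cTEC and 163 in mTEC1. Its level in early Pr was 2.30 times that of cTEC (2.19 to 2.41) and 5.83 times that of mTEC1 (5.47 to 6.21). Cldn11 stood at 59.6 CPM in early Pr, 14.2 in cTEC and 21.3 in mTEC1, which is 4.19 times the cTEC level and 2.80 times the mTEC1 level. Both genes had their highest level in early Pr among all 24 stromal labels of at least 20 cells. Bcl2 stood at 211 CPM (202.5 to 218.9), with 167 in cTEC and 109 in mTEC1. It too was the highest stromal level, at 1.26 times the cTEC level, but it lay within the interval of the 25 cells labelled TEC:mimetic(tuft) (147.4 to 254.7). In the thymocyte library Bcl2 reached 598 CPM in the label Immature CD4-2, above its level in early Pr. Ackr4 and Cldn11 were nearly absent from that library, at 0.872 and 0.125 CPM.

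When every cell was thinned to 3000 UMIs, which left 1002 early Pr, 411 cTEC and 454 mTEC1 cells, Ackr4 had a UMI in 80.2% of early Pr cells (77.6 to 82.7), 51.6% of cTEC and 21.2% of mTEC1. Unthinned, the shares were 94.3%, 70.1% and 40.3%. At 3000 UMIs an Ackr4 UMI was seen in 4.204% of cells of the mesenchymal label TMC4 and in 13.9% of TMC1, another mesenchymal label. It was seen in 4.43% of 158 cells labelled thymocyte, which should lack the gene. Capsular fibroblasts were far above these mesenchymal labels. Unthinned, 64.7% of them had an Ackr4 UMI, at a level of 124 CPM, against 30.5% of TMC1 and 9.85% of TMC4 cells. Cldn11 had a UMI in 12.5% of thinned early Pr cells, 2.92% of cTEC and 5.07% of mTEC1, against 0.0824% of TMC4. Bcl2 had one in 40.8%, 37.7% and 28.6%, and TMC4 cells reached 38.8%. Ackr4 was thus detected in most early Pr cells and Cldn11 in a small share of them, while Bcl2 was as frequent in a mesenchymal label.

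Mt1 and Mt2A, the metallothioneins, are small proteins that bind zinc and other metals. Together with Ackr4, Cldn11 and the matrix protein gene Cthrc1, they were the 5 genes that led every other stromal label of at least 50 cells by at least 2-fold, out of 5763 genes that were seen in 25% or more of early Pr cells. Their promoters are printed because metallothionein genes are switched on through metal response elements, and both genes led together. The 250 bases before each RefSeq start site are shown for GRCr8, 5′ to 3′ on the gene's own strand: Mt1 at chr19:10832976-10833225 and Mt2A at chr19:10838709-10838958, both on the minus strand. Capitals mark the core of the metal response element (TGCACNC or TGCGCNC, on either strand).
Mt1: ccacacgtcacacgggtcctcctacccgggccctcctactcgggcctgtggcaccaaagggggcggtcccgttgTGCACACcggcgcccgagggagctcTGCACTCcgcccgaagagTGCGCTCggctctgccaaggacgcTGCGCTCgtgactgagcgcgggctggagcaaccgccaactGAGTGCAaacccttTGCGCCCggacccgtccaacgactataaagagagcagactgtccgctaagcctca
Mt2A: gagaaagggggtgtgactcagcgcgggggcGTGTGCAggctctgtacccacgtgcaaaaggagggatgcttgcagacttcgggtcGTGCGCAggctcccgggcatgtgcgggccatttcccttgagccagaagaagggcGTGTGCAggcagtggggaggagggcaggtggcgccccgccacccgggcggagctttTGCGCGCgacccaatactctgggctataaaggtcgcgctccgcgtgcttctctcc
The core occurred at 6 places before Mt1 and at 4 before Mt2A, with no overlap between places. Of 33469 rat promoter windows of the same length, 20.6% held at least 1 match. At least as many matches as in Mt1 were found in 0.0269% of windows, and as many as in Mt2A in 0.266%. Of the other genes high in early Pr that were searched, Cldn11 had 1 match and Odc1, Cyp2e1 and Aldh1a1 had none. A match is a stretch of letters and not a measured binding site.

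Mt2A stood at 1557 CPM in early Pr, 594 in cTEC and 440 in mTEC1, and Mt1 at 1188, 535 and 409 CPM. The intervals of the 3 labels did not overlap for either gene. Mt2A was 2.62 times the cTEC level (2.52 to 2.73) and 3.54 times the mTEC1 level, and Mt1 was 2.22 and 2.90 times. At 3000 UMIs per cell, Mt2A was seen in 87.8% of early Pr cells, 59.4% of cTEC and 49.6% of mTEC1, against 3.79% of TMC4 cells. In the thymocyte library both genes were highest in the label B+myeloid, with 379 CPM of Mt1 and 81.2 of Mt2A.

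Over all cells of each label, early Pr lay closer to cTEC than to mTEC1 across the transcriptome, an order that depended on the clusters compared. Of 34034 genes, the 10358 that reached 100 UMIs over the 3 labels and were seen in 10% of the cells of 1 label or more were compared. The median size of the log2 ratio was 0.16 against cTEC and 0.26 against mTEC1, and 0.27 between cTEC and mTEC1. The order was reversed, at 0.86 against cTEC and 0.41 against mTEC1, in another choice of cells. There, early Pr of the authors' initial cluster TEC-b was set against cTEC of TEC-a and mTEC1 of TEC-d, the clusters described further on. That choice left 72 cTEC cells with a median of 4518.5 UMIs, against 232 mTEC1 cells with a median of 15129. Genes of epithelial identity summed to 4598 CPM in those cTEC cells and to 17726 in those mTEC1 cells. The part of depth in the reversal was not tested. Early Pr was at least 2-fold higher than cTEC in 66 genes (0.637% of those compared) and at least 2-fold lower in 192 (1.85%). Against mTEC1 it was at least 2-fold higher in 318 genes (3.07%) and lower in 704 (6.8%). Against both it was higher in 26 genes (0.251%), 3 of them known only by an identifier, and lower in 86 (0.83%), 4 of them known only by an identifier. Where a label held under 3 UMIs of a gene, 3 UMIs stood in for its count. For 10 genes this left the direction against cTEC unknown, and they were given no ratio to it.

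**Figure D1:**
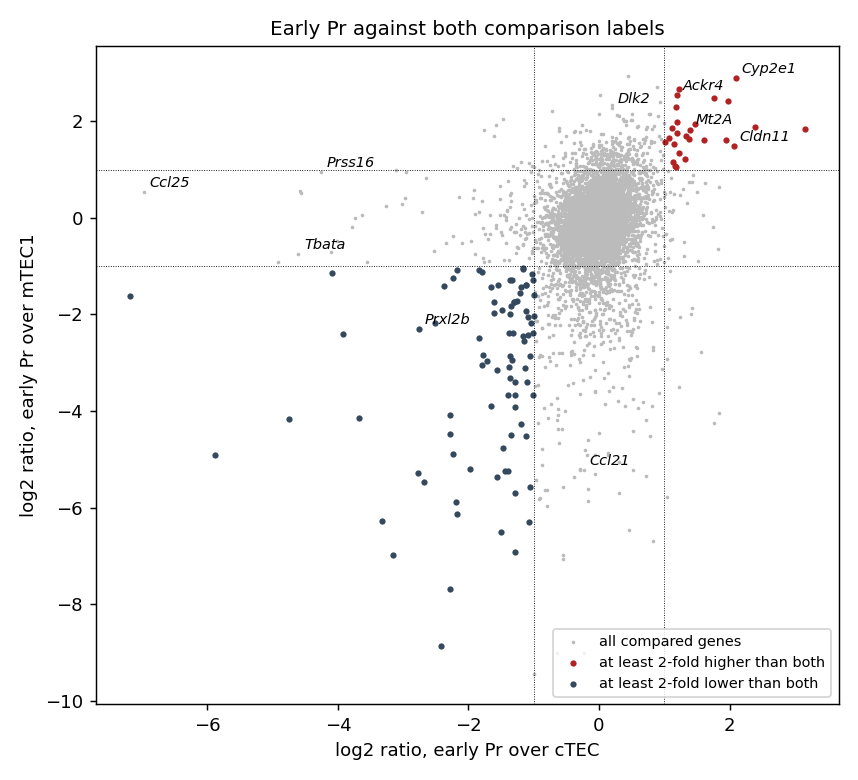
Each point is 1 of the compared genes, with the log2 ratio of early Pr over cTEC on the x axis and over mTEC1 on the y axis; dotted lines mark 2-fold. The 26 red genes are at least 2-fold higher than both labels and the 86 dark genes at least 2-fold lower, and the cloud is wider along the mTEC1 axis than along the cTEC axis.

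Of the 26 higher genes, 13 carried a name, reached 100 UMIs and were seen in 25% or more of early Pr cells. Enzymes of small molecules were among them. Cyp2e1, a cytochrome P450, stood at 118 CPM in early Pr, 27.7 in cTEC and 15.9 in mTEC1, which is 4.26 times (3.58 to 5.11) and 7.44 times (6.08 to 9.19). Aldh1a1, which makes retinoic acid, stood at 124, 31.7 and 23.2 CPM. It was higher in other epithelial labels than in early Pr, with 653 CPM in the 55 cells labelled TEC:mimetic(goblet). Odc1, the rate-limiting enzyme of polyamine synthesis, stood at 505, 165 and 165 CPM, which is 3.06 and 3.07 times. Art3, a member of the ADP-ribosyltransferase family, stood at 43.3, 17.4 and 18.7 CPM.

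Genes of matrix and cell surface formed another part of the 13. Cthrc1 stood at 146 CPM in early Pr, 43.1 in cTEC and 26.3 in mTEC1, and its next level among labels of at least 50 cells was 71.1 in TMC1. Col12a1, a collagen that binds to fibrils, stood at 408, 107 and 134 CPM, and at 239 in TMC4. F3, the tissue factor that starts blood clotting, stood at 564, 241 and 222 CPM. TMC1 mesenchyme had slightly more F3 than early Pr, at 591 CPM (578.1 to 603.7). Mesenchymal labels thus held the next level of Cthrc1 and Col12a1 and the top level of F3, while among the 3 epithelial labels early Pr was highest for each.

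Fos and Fosb, transcription factor genes that are induced within minutes of a stimulus, completed the list. Fos stood at 911 CPM in early Pr, 403 in cTEC and 439 in mTEC1, and Fosb at 325, 141 and 96.4 CPM. Such genes are also known to respond to tissue digestion. A list of immediate-early and heat-shock genes had 19 compared members. At least 2-fold higher than in cTEC were 3, 2 were so against mTEC1 and none was 2-fold lower than either. Over all compared genes, 0.637% were that much higher than in cTEC and 3.07% than in mTEC1. The median log2 ratio was 0.64 to cTEC and 0.26 to mTEC1, where all compared genes had −0.04 and −0.05. Jun stood at 672, 388 and 616 CPM, Egr1 at 308, 165 and 191, and Hspa1b, a heat-shock chaperone, at 1115, 711 and 834. The summed level of the list was 6863 CPM in early Pr, 4382 in cTEC and 5342 in mTEC1. It ranked ninth from the top among 24 stromal labels, under 14347 CPM in venous endothelium (EC:vEC). The part of handling in the levels of Fos and Fosb was not tested.

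Of the 86 lower genes, 13 reached 100 UMIs and 25% of cells in both comparison labels. Krt7, a keratin of simple epithelia, stood at 210 CPM in early Pr, 538 in cTEC and 510 in mTEC1, a ratio of 0.39 (0.37 to 0.41) and of 0.41 (0.39 to 0.43). Prxl2b, a peroxiredoxin-like enzyme gene, stood at 24.8, 167 and 123 CPM, the lowest ratio to cTEC of the 13, at 0.15. Sphk1, which makes sphingosine 1-phosphate, stood at 14.9, 70.4 and 35.3 CPM. The cytoskeletal genes Tubb6 (20.01, 55.9 and 74.6 CPM), Cotl1 (19.4, 48.1 and 101) and Stmn1 (36.7, 73.6 and 190) were at their lowest in early Pr too. The other 7 named genes were Grik2, Kcnip3, Nsd2, Mreg, Pagr1, Ldhb and Ppm1h, with early Pr levels of 17.5 to 33.0 CPM.

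**Figure D2:**
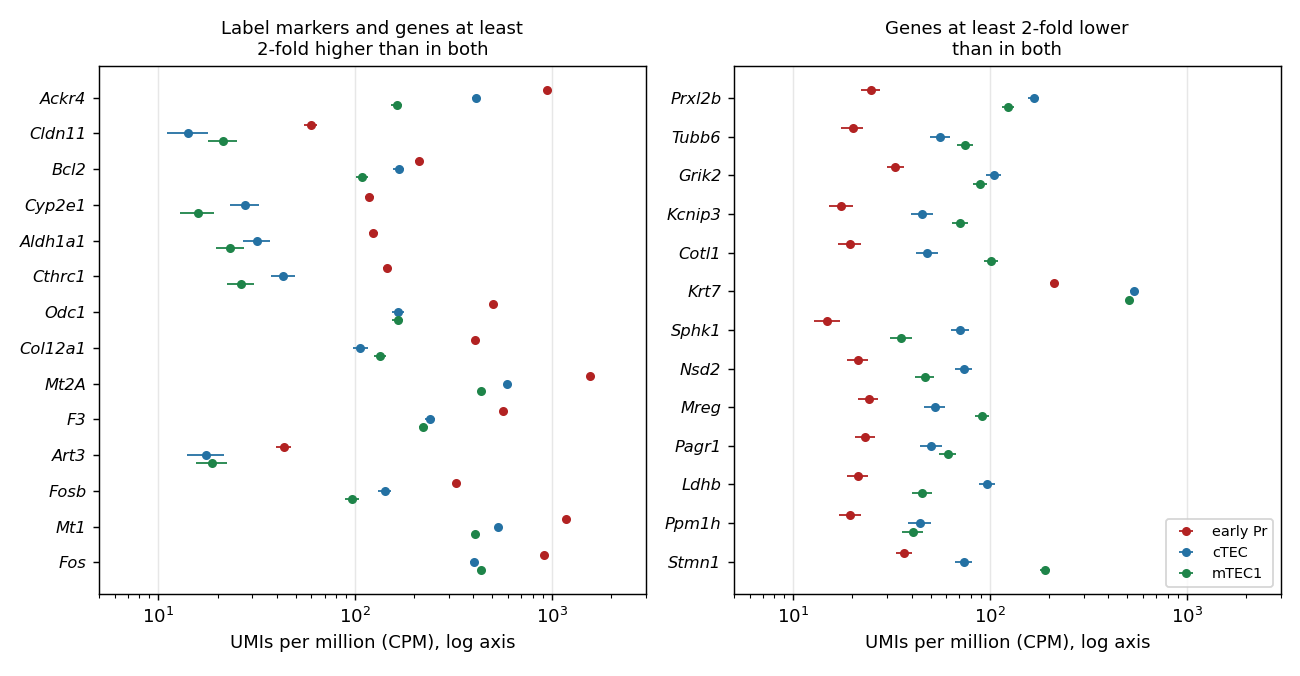
Levels of the 3 label markers and of the named genes higher (left) or lower (right) than in both comparison labels, as CPM on a log axis; points are label totals and bars exact Poisson 95% intervals, hidden by the point where narrow. Ackr4, at 947, 412 and 163 CPM, and Krt7, at 210, 538 and 510, show the order of the labels in each panel.

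Several genes that are known for cortical function were far lower in early Pr than in cTEC, while others were near the cTEC level. Of 14 compared genes on a cortical list, 4 were at least 2-fold lower than in cTEC and 1, Scx, was higher on 3 UMIs in cTEC, with a median log2 ratio of −0.57. Against mTEC1, 5 were at least 2-fold higher and 1 lower, with a median of 0.55. Over all compared genes, 0.637% were higher and 1.85% lower than in cTEC, and 3.07% higher and 6.8% lower than in mTEC1. Ccl25 stood at 4.28 CPM in early Pr, 535 in cTEC and 2.95 in mTEC1, so early Pr had 0.0080 times the cTEC level. Prss16 stood at 10.8, 207 and 5.60 CPM. Tbata, a gene of cortical epithelium, stood at 129, 3128 and 217 CPM, and Cd83 at 2.97, 71.2 and 2.02. Psmb11 was low in the library as a whole, with 0.659 CPM in early Pr (8 UMIs) and 10.4 in cTEC, and was too rare to enter the comparison.

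Cxcl12, which attracts early thymocytes, stood at 1866 CPM in early Pr, 1650 in cTEC and 719 in mTEC1. Kitlg, the ligand of Kit, stood at 265, 247 and 98.7 CPM, and Ly75, an endocytic receptor, at 548, 924 and 255. Ctsl, the cathepsin that trims class II peptides in cortex, stood at 1613, 2353 and 760 CPM. Il7, a survival cytokine of thymocytes, stood at 106, 160 and 125 CPM. The 4 genes at least 2-fold lower than in cTEC were thus Ccl25, Prss16, Tbata and Cd83. By ratio, early Pr was closer to cTEC than to mTEC1 for Cxcl12, Kitlg, Ly75 and Ctsl, and closer to mTEC1 for Il7.

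Genes of medullary function were lower in early Pr than in mTEC1 over all cells, and near the cTEC level. Of 15 compared, 9 were at least 2-fold lower than in mTEC1 and none was higher, with a median log2 ratio of −2.43. Against cTEC, 1 was at least 2-fold lower, none was higher and the median was −0.22. Over all compared genes, 6.8% were at least 2-fold lower than in mTEC1 and 1.85% lower than in cTEC. Ccl21 stood at 335 CPM in early Pr, 391.6 in cTEC and 12495 in mTEC1, and Ccl19 at 309, 267 and 3483. Fezf2, which drives tissue antigens in medulla, stood at 0.412, 0.602 and 52.2 CPM. Tnfrsf11a, the receptor RANK, stood at 2.72, 5.21 and 51.3 CPM. Within mTEC1 the level depended on the authors' initial cluster, and the list summed to 24931 CPM in TEC-d and 2634 in TEC-b. In TEC-b, the median cell had 899 CPM of the list in mTEC1 and 827 in early Pr. Aire had no UMI among 12141555 in early Pr, which allows up to 0.247 CPM at 3 UMIs, and stood at 0.466 CPM in mTEC1.

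Early Pr kept an epithelial programme with little Foxn1. Foxn1 stood at 17.1 CPM (14.8 to 19.5), 54.7 in cTEC and 31.7 in mTEC1, a ratio of 0.31 (0.26 to 0.37) and of 0.54 (0.44 to 0.66). Its cortical partner Pax1 stood at 119, 207 and 82.7 CPM, and Pax9 at 223, 209 and 166. Tp63, the master factor of stratified epithelia, stood at 430, 442 and 294 CPM. The list of epithelial identity had 21 compared genes. At least 2-fold lower than in cTEC were 2 (Krt7 and Foxn1), 6 were lower than in mTEC1, and none was higher than either. Over all compared genes, 1.85% were lower than in cTEC and 6.8% lower than in mTEC1.

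The keratins did not follow 1 pattern. Krt5 stood at 2699 CPM in early Pr, 3119 in cTEC and 3340 in mTEC1, Krt14 at 3846, 4142 and 3623, and Krt15 at 998, 969 and 1040. These basal keratins were within 2-fold between early Pr and either label. Krt8 stood at 455, 686 and 1182 CPM, Krt18 at 308, 443 and 1118, and Krt17 at 685, 811 and 3402. Krt19, also a keratin of simple epithelia, stood at 784, 856 and 583 CPM. Krt7, Krt8, Krt17 and Krt18 were therefore lowest in early Pr, and Krt19 was not. Epcam, the epithelial adhesion molecule, stood at 1207, 918 and 1459 CPM.

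Genes that have been linked to epithelial progenitors were mostly above both labels, by less than 2-fold against cTEC. Of 22 compared, 13 were above both, where 2552 of all 10358 compared genes were. Of the 22, none was 2-fold higher or lower than in cTEC, and 4 were higher and 1 lower than in mTEC1. Over all compared genes, 3.07% were higher and 6.8% lower than in mTEC1. The median log2 ratios were 0.18 and 0.47. The whole list summed to 5190 CPM in early Pr, 3514 in cTEC and 2876 in mTEC1. Within cluster TEC-b it summed to 5292, 3995 and 4526 CPM, so the gap to mTEC1 was smaller there. Igfbp5, a binding protein of insulin-like growth factors, came closest to the threshold against cTEC, with 2597 CPM in early Pr, 1321 in cTEC and 1056 in mTEC1. This gene alone held most of the gap in the summed level over all cells, to cTEC and to mTEC1 alike. Dlk2, a Notch-related surface protein, stood at 108, 93.8 and 22.4 CPM, and Klf4 at 184, 128 and 65.1. Fst, the antagonist of activin, stood at 114, 58.8 and 65.9 CPM, and Id1 at 464, 354 and 278. Sox2 had no UMI in any of the 3 labels, Plet1 stood at 0.247 CPM in early Pr, and Lgr5 at 1.40.

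Of the pathways that support epithelium, most members stayed within 2-fold, as most compared genes did. The shares over all compared genes were 0.637% higher and 1.85% lower than in cTEC, and 3.07% higher and 6.8% lower than in mTEC1. Among 26 compared genes of the Wnt pathway, 2 were lower than in cTEC and none higher, and 2 were higher and 2 lower than in mTEC1. Wnt4, a ligand made by thymic epithelium, stood at 251 CPM, 240 in cTEC and 129 in mTEC1. Of 22 receptors and ligands of the FGF, BMP and TGF-beta families, none passed 2-fold against cTEC, and 1 was higher and 1 lower than in mTEC1. Fgfr2, the receptor of FGF7 and FGF10, stood at 269, 264 and 140 CPM, and Bmp4 at 58.6, 37.5 and 33.7. Of 15 genes of the EGF and IGF families, none passed 2-fold against cTEC, and 3 were higher and 2 lower than in mTEC1. Of 16 Notch pathway genes, none passed 2-fold against cTEC, and 2 were higher and 3 lower than in mTEC1. Edar, the ectodysplasin receptor, was outside these lists and stood at 36.5, 20.5 and 9.79 CPM, with its highest level in early Pr among labels of at least 50 cells.

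Antigen presentation and cycling genes were near the cTEC level in early Pr, as most compared genes were. None of 11 class II and none of 16 class I genes passed 2-fold against cTEC. Over all compared genes, 0.637% were that much higher than in cTEC and 1.85% lower. Cd74, the class II invariant chain, stood at 2391 CPM, 2566 in cTEC and 2103 in mTEC1. Nlrc5, which drives class I genes, stood at 7.91, 7.42 and 115 CPM, and B2m at 4699, 3843 and 7136. Of 9 compared cell-cycle genes, 4 were at least 2-fold lower than in mTEC1 and none passed 2-fold against cTEC. The share lower than in mTEC1 was 6.8% over all compared genes. Mki67, a marker of cycling cells, stood at 5.60, 6.82 and 29.1 CPM, and the summed level of the 28 listed genes was 162, 198 and 357 CPM. The summed level was thus lowest in early Pr, with each compared gene within 2-fold of cTEC.

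Markers of other cells were sought in the same way. The 10 thymocyte markers summed to 18.5 CPM in early Pr, 33.3 in cTEC and 40.3 in mTEC1, and 10 myeloid markers to 10.9, 12.6 and 21.1, and none of either list was frequent enough to be compared. Of 10 mural markers, 5 were compared, and their list summed to 176, 197 and 2553 CPM. The 10 endothelial markers had their highest sum in early Pr, at 134.5 CPM, with 72.2 in cTEC and 85.3 in mTEC1. The 10 mesothelial markers summed to 848.5, 918.3 and 665.5 CPM, so all 3 labels held them. The ionocyte factors Foxi1 and Ascl3, the parathyroid factor Gcm2 and the glial factor Sox10 had no UMI in early Pr. Other members of the ionocyte and glial lists did have UMIs. The 6 ionocyte markers summed to 19.0 CPM in early Pr, 13.2 in cTEC and 7.77 in mTEC1, highest in early Pr. The 7 glial markers summed to 24.1, 63.8 and 35.6 CPM. Fibroblast markers were present in all 3 labels, with 4844 CPM in early Pr, 4563 in cTEC and 3250 in mTEC1 over 10 genes, each of them detected. Those transcripts were unevenly spread over the cells, as described next.

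The authors' initial clusters cut across the labels. Cluster TEC-b held 878 early Pr cells (86.3%), 311 cTEC and 176 mTEC1 cells, so that 63.3% of its 1388 cells were early Pr. Cluster TEC-c held 120 early Pr cells, Endo-2 held 16, TEC-a 3 and TEC-d 1. cTEC cells were also found in TEC-a (72 cells), and mTEC1 cells in TEC-d (232 cells, 48.1% of them) and TEC-c (54 cells).

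Cells of TEC-c carried more fibroblast transcripts than those of TEC-b, whichever of the 3 labels they had. In early Pr all 10 fibroblast markers were higher in TEC-c. Col1a1 stood at 3329 CPM in TEC-c and 48.2 in TEC-b, Dcn, the matrix proteoglycan decorin, at 8161 and 295, and Fbn1, fibrillin, at 1068 and 23.4. The list summed to 23700 CPM in TEC-c and 697 in TEC-b, against 54654 in TMC1 and 67687 in capsular fibroblasts (capFb). The median cell had 18539 CPM in TEC-c (10th to 90th percentile 2468 to 44501) and 274 in TEC-b (78.1 to 601). In TEC-c the list also summed to 20613.5 CPM in cTEC and 13588 in mTEC1, against 707 and 564 in TEC-b. Early Pr cells of TEC-b did not lack these transcripts, as 28.5% of them had a Dcn UMI at 3000 UMIs and 40.7% had none of the list. The median depth was also higher, with 18540.5 UMIs in TEC-c and 10626.5 in TEC-b. Epithelial genes were lower, with Epcam at 681 and 1336 CPM and the epithelial list at 7073 and 14014. Ackr4 was still at 652 CPM in TEC-c and 1030 in TEC-b, above the 62.7 of TMC1 and 124 of capFb. The 16 early Pr cells of Endo-2 had 2626 CPM of the endothelial list against 60.0 in TEC-b. No doublet caller was run, and the part of mixed droplets in the cells of TEC-c and Endo-2 was not tested.

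**Figure D3:**
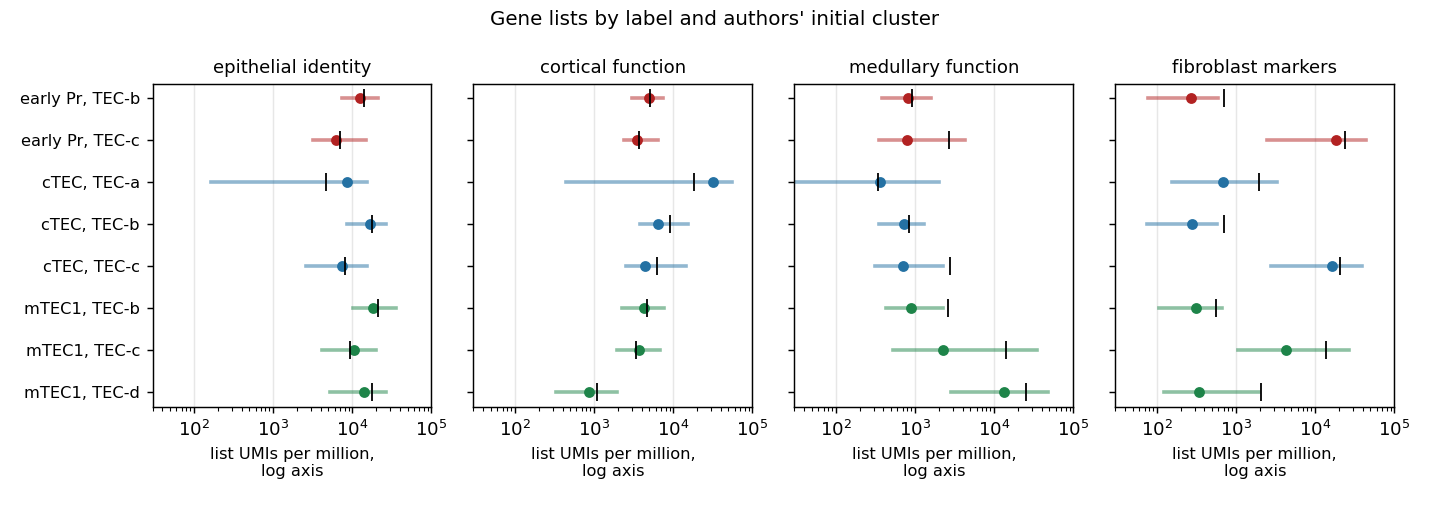
Summed level of 4 gene lists per cell, as CPM on a log axis, by label and by the authors' initial cluster; dots are the median cell, bars run from the 10th to the 90th percentile (drawn from 30 upward) and black ticks are the level of all cells summed. Early Pr cells of TEC-c sit at 18539 CPM of fibroblast markers at the median, against 274 in TEC-b.

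Within cluster TEC-b alone the 3 labels had like depth (medians of 10626.5, 10757 and 10139 UMIs), and the differences from mTEC1 were smaller. The median size of the log2 ratio was 0.16 against cTEC, as over all cells, and 0.18 against mTEC1. Genes at least 2-fold higher than in cTEC stayed at 66, but those lower numbered 106 there and 192 over all cells. Against mTEC1, 88 genes were higher and 78 lower in TEC-b, and 318 and 704 over all cells. Of 9559 genes compared, 15 were at least 2-fold higher in early Pr than in both and 23 lower, and 9 and 8 of these were also called over all cells. All 13 named higher genes kept their direction and 7 stayed past 2-fold: Cyp2e1, Aldh1a1, Cthrc1, Odc1, Art3, Ackr4 and Fosb. Ackr4 stood at 1030 CPM in early Pr, 510 in cTEC and 380 in mTEC1 there. Cldn11 stood at 67.1, 15.6 and 46.6 CPM, so it was 4.30 times the cTEC level and 1.44 times the mTEC1 level. Mt2A stood at 1725, 669 and 906 CPM. Genes past 2-fold in TEC-b that were not named over all cells were Dusp6, Kdr, Tmem132d, Nr4a1, Sgcd, Etv5 and Slc1a5. They were chosen after their values were seen.

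Of the 13 named lower genes, 4 stayed past 2-fold in TEC-b (Tubb6, Kcnip3, Krt7 and Sphk1) and 9 kept their direction. Krt7 stood at 222 CPM in early Pr, 563 in cTEC and 603 in mTEC1. Prxl2b stood at 24.4, 63.2 and 45.5 CPM there, a smaller gap than over all cells. Foxn1 remained lowest in early Pr, at 16.9, 63.2 and 42.2 CPM. Prss16, at 10.7, 228.5 and 9.21 CPM, and Tbata, at 120, 1881 and 306, were still highest in cTEC. Ccl21 stood at 81.6 and 1532 CPM in early Pr and mTEC1 of TEC-b, and at 18776 in mTEC1 of TEC-d.

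Between cTEC and mTEC1, early Pr lay near cTEC on the genes that mTEC1 has high. Of the compared genes, 290 differed at least 4-fold between cTEC and mTEC1 and had a ratio of early Pr to cTEC, 55 of them higher in cTEC and 235 in mTEC1. Early Pr lay between the 2 levels for 159 of them (54.8%), beyond the cTEC level for 121 and beyond the mTEC1 level for 10. The genes were selected from these same data and are not independent, so no interval is given for their share or position. On a log2 scale with 0 at cTEC and 1 at mTEC1, the median position was 0.06. For mTEC1-high genes it was 0.0013, and 232 of 235 lay nearer cTEC. For cTEC-high genes it was 0.65, and 31 of 55 lay nearer mTEC1. Early Pr was thus nearer the lower of the 2 labels for 232 of 235 mTEC1-high genes and for 31 of 55 cTEC-high genes. The position rested on which cells were compared. Within TEC-b 23 genes passed 4-fold, and the median position was 0.71. With TEC-b early Pr set against cTEC of TEC-a and mTEC1 of TEC-d, 1487 genes did, and the median position was 0.76. That comparison rested on 72 cTEC cells with a median of 4518.5 UMIs.

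Over all thinned early Pr cells the variance over the mean, which is 1 for counting noise alone, had a median of 1.07 over 4957 genes. The 15 highest held Ccl21 at 61.3, with 21.9% of cells positive and 178 UMIs in 1 cell, and Pla2g2a, a secreted phospholipase, at 48.2. Ccl21 averaged 4.63 UMIs in TEC-c and 0.265 in TEC-b, where its variance over the mean was 2.39. At the same depth a Ccl21 UMI was also seen in 21.15% of TMC1 cells and 31.0% of 158 cells labelled thymocyte. They also held Dcn, Col3a1, Col1a1, Col1a2, C7, Gsn and Pi16, genes of mesenchyme, whose mean was higher in TEC-c. Dcn averaged 23.8 UMIs in TEC-c and 0.672 in TEC-b.

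Within the 874 thinned TEC-b cells, Pla2g2a had a variance over mean of 49.8, with a median of 1 UMI, a 90th percentile of 22 and a highest cell of 214. Krt15, a keratin of basal cells, was absent from 49.5% of cells and had a 90th percentile of 11 UMIs. Krt14, by contrast, was present in 98.2% with a median of 10 and a 90th percentile of 25. Igfbp5 had a median of 5 and a 90th percentile of 23, and Gpha2, a glycoprotein hormone subunit, of 3 and 13. Apoe, the lipid carrier, was in 99.7% of cells with a median of 77. Fos was absent from 41.1% of cells, and 1.37% had more than 20 UMIs of it. Krt15 and Pla2g2a were thus unevenly spread and Krt14 was near universal.

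**Figure D4:**
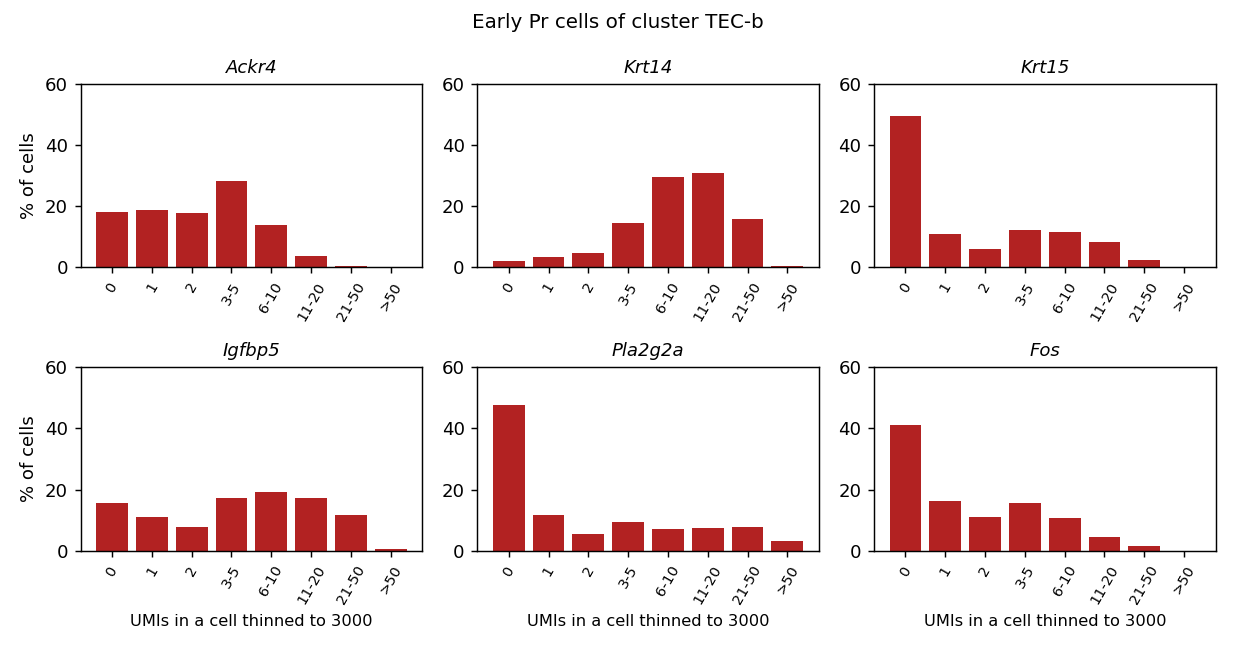
Distribution of 6 genes over the 874 early Pr cells of cluster TEC-b after thinning to 3000 UMIs, as the percentage of cells (y axis) in each class of UMI count (x axis). Krt15 and Pla2g2a have no UMI in 49.5% and 47.7% of cells with tails above 20 UMIs, whereas Krt14 is at 0 in 1.83%.

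As a description over these 874 cells, which share 1 library and 1 depth, counts of Krt14 and Krt5 had a Pearson r of 0.59, those of Fos and Fosb 0.56, and those of Mt1 and Mt2A 0.53. Krt14 and Krt15 had 0.04, Krt14 and Mt2A −0.25, and Ackr4 and Cldn11 0.10. Krt14 counts thus went with those of Krt5 and hardly with those of Krt15. With the cells split by sequencing depth into low, middle and high groups, Ackr4 stood at 1046, 1158 and 932 CPM and Bcl2 at 236, 205 and 234, while Cldn11 stood at 104, 69.4 and 46.8 and Mt1 at 1584, 1372 and 1109. Levels of Cldn11 and Mt1 were lower at higher depth, and the part of depth in them was not tested.

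Transcripts of the cortical genes Psmb11, Prss16 and Ccl25 were seen in few early Pr cells. At 3000 UMIs, 40 of 1002 early Pr cells (3.99%, 2.87 to 5.40) had at least 1 UMI of Psmb11, Prss16 or Ccl25 and at least 1 of Ccl21, Krt14 or Krt5. The share was 24.1% in cTEC and 2.64% in mTEC1, and 0.369% in TMC1 and 0.742% in TMC4, which should lack the cortical genes. Unthinned it was 14.4% in early Pr, 38.4% in cTEC and 10.4% in mTEC1. Since 99.8% of early Pr cells had a UMI of the second set, the cortical genes set the share, and with 2 UMIs of each set it was 0.200%.

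In the section the early Pr label was more frequent per bin in the capsular region than in cortex. Each 20-unit bin, a square of 10 µm at the nominal 0.5 µm per unit, carries up to 3 labels by RCTD, a method that decomposes a bin's transcripts into reference cell types. A bin can hold parts of several cells, and intervals are too narrow because RNA and tissue run across bins. Early Pr was the top label of 1121 of 592087 labelled bins and a second label of 20772. The authors' table called 41.3% of those top labels confident, against 83.2% for cTEC and 42.7% for mTEC1.

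Of the 1121 bins, 74.1% lay in the region that the authors call capsular. In the authors' cell bins the capsular region held 50.3% of top labels, and with any label of a bin counted it held 36.7%, against 50.8% in the larger cortex. Early Pr was the top label of 0.674% of labelled bins there (0.629 to 0.721), 0.0574% in cortex, 0.0747% in mECA and 0.129% in mEFA, region names as the authors give them. The capsular share was 11.7 times that of cortex (10.2 to 13.6), and 4.86 times in cell bins. The mEFA share was 1.73 times that of mECA (1.02 to 2.94), from 25 and 30 bins, but 1.07 times in cell bins (0.806 to 1.43) and 1.60 times for confident labels (0.757 to 3.38), where the intervals include 1. cTEC was the top label of 0.735% of capsular and 0.586% of cortical bins, a ratio of 1.25, and mTEC1 had its highest share in mECA, at 4.17%. With bins of any label counted, early Pr reached 6.53% in the capsular region, 2.72% in cortex, 3.79% in mECA and 6.30% in mEFA, so the capsular share was 2.40 times that of cortex.

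The distance to the capsule showed where in the capsular region the label lay. Bins at distance 0 had early Pr as top label in 4.41% (4.09 to 4.74), and 62.2% of all early Pr top labels were there. The share was 0.205% within 20 µm, 0.0712% from 20 to 50 µm and 0.0388% from 100 to 200 µm. It was 0.0807% from 400 to 800 µm. mTEC1, a medullary label, also reached 3.30% at distance 0 and 0.119% from 20 to 50 µm, and cTEC 2.12% and 0.512%. All 3 epithelial labels were thus most frequent as top label at distance 0 among the distance classes of capsular region and cortex, and the part of the decomposition at the tissue edge was not tested. With any label counted, early Pr was named in 23.6% of bins at distance 0, 14.4% for cTEC and 9.13% for mTEC1, and in 2.18% from 20 to 50 µm. By that count cTEC was not concentrated at the capsule, with 13.7% from 20 to 50 µm and 17.5% from 100 to 200 µm. Beside a top label of early Pr, the second label was most often one of the thymocyte labels DN (35.0%) and DP (33.4%).

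**Figure D5:**
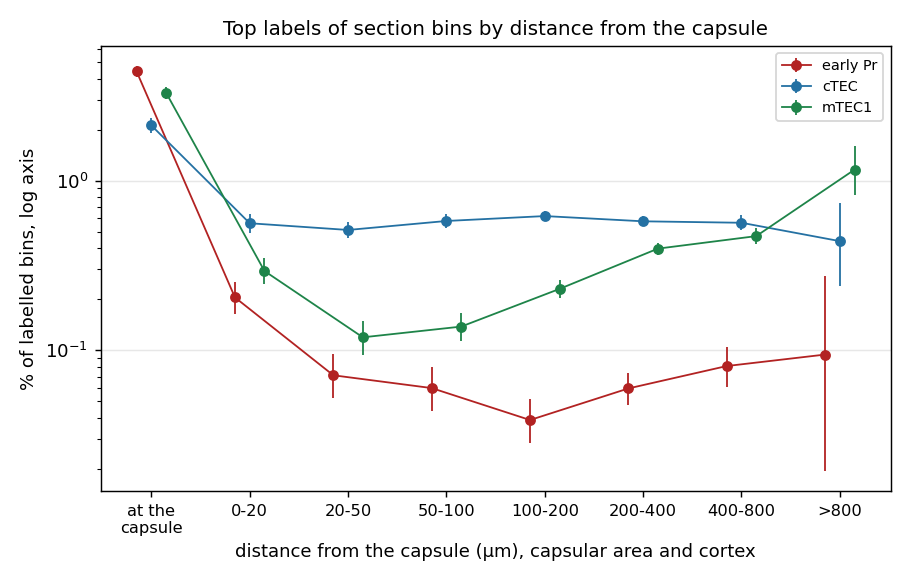
Percentage of labelled bins of the capsular region and cortex whose top label is early Pr, cTEC or mTEC1 (y axis, log scale), by distance from the capsule in µm (x axis); bars are exact Clopper-Pearson 95% intervals. The early Pr share is 4.41% at the capsule and 0.0388% at 100 to 200 µm, while that of cTEC stays between 0.440% and 0.619% beyond the capsule.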

How the data were processed

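For both droplet libraries the authors deposited matrices of UMI counts, not normalized; per the file headers they came from Cell Ranger 8.0.0. The submitters' processing notes also name Seurat 5.3.0 and the build mRatBN7.2; barcode filters are not given in the sources used here. The authors deposited the percent of mitochondrial UMIs per cell and map coordinates, a score without unit. Weights of RCTD labels in section bins are a fraction deposited by the authors, and the aligner of the section is not given in the sources used here. Of 16160 stromal barcodes, 13226 carried an annotation. A cell's label was its projected label, or its initial cluster where it had no projected label.

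UMIs were summed per label; levels have exact Poisson intervals, shares exact Clopper-Pearson intervals, and ratios the exact conditional interval of 2 Poisson rates or, for the section, a log-normal one. Thinning drew 3000 UMIs per cell (seed 11) and left out 16 early Pr, 37 cTEC and 28 mTEC1 cells. Doublets were not removed.

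Genes were named by rule: the markers; up to 25 genes at least 2-fold higher than both labels (100 UMIs, 25% of early Pr cells); up to 15 at least 2-fold lower (100 UMIs and 25% of cells in both comparison labels); the 10 with the largest lead over every label; members of gene lists by level or ratio; and the 15 most variable. The members and lists were chosen with earlier results of these data known. Promoters came from RefSeq (GRCr8) by symbol; coordinates were not converted. Alternatives changed scaling, depth, filters, cells and thresholds. The contrast was tested on simulated data. Software was matplotlib 3.10.9, pandas 2.3.3, SciPy 1.17.1 and NumPy 2.4.6 under Python 3.11.15.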

Additional observations from a re-analysis of the deposited data

Results flagged for a closer look

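The 2934 stromal barcodes without an annotation, which enter no comparison, carried transcripts of all 3 label markers above the level of 3 UMIs in their 8663291 UMIs (0.346 CPM). Ackr4 stood at 73.4 CPM there, Bcl2 at 97.5 and Cldn11 at 6.23, on 636, 845 and 54 UMIs. The annotated cells of the same library had 152.5, 98.3 and 8.13 CPM. These barcodes were given no label here.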

How the results depend on the processing

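No paired analysis was possible because there was a single sample of each kind. No scaling of totals moved the median of all genes by over 0.1 on the log2 scale. Of 540 named gene ratios under alternatives, 302 planned and 62 added ones stayed within the counting interval, 58 and 112 moved outside it with their direction kept, and 6 changed direction. With all barcodes as the total, early Pr made up 6.30%. The 26 higher genes became 16 after thinning, 142 with no filter, 10 at 300 UMIs and 50% of cells, 126 at 1.5-fold and 1 at 4-fold. The 86 lower genes became 50, 431, 1, 238 and 17 under the same settings, and 132 with the mean of the cells' CPM. Added after the data were seen, TEC-b cells alone gave 15 higher and 23 lower, and leaving out TEC-c and Endo-2 gave 136 lower. Also added then, TEC-b early Pr against TEC-a cTEC and TEC-d mTEC1 gave 574 and 295. The 72 cTEC cells of TEC-a had a median of 4518.5 UMIs. The share of genes between cTEC and mTEC1 was 48.8% with the mean of the cells' CPM, 47.8% after thinning, 64% with the strict filter, 69.6% in TEC-b, 67.1% in the comparison with TEC-a and TEC-d, and 47.8% at 8-fold. In that comparison the ratio to cTEC was 6.76 for Grik2 and 1.03 for Kcnip3, and in TEC-b the ratio to mTEC1 was 1.16 for Grik2, 1.24 for Nsd2, 1.07 for Ldhb and 1.10 for Ppm1h; the cause was not tested. Cells with both kinds of transcript made up 0.200% with 2 UMIs and 1.87% at 1000 UMIs. The capsular over cortex ratio was 4.86 in cell bins, 9.30 in deeper bins and 2.40 with any label; that of mEFA over mECA was 1.07 in cell bins, 1.60 for confident labels, 1.87 in deeper bins and 1.66 with any label. Cells whose label came from the initial cluster alone could not be tried, since all 1018 had a projected label. Depth limits rare genes: Psmb11 rested on 8 UMIs and Aire on 0 in early Pr.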

Other observations

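Several genes that led in early Pr by less than 2-fold have not been described above. Gpc5, a glypican that carries heparan sulphate, stood at 143 CPM in early Pr, 74.6 in cTEC and 27.1 in mTEC1, and its lead over every stromal label of at least 50 cells was 1.92-fold. Khdrbs2, an RNA-binding protein gene, stood at 76.8, 40.9 and 17.7 CPM. Both were highest in early Pr and lowest in mTEC1, with intervals that did not overlap.

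Other chemokine and matrix-signal genes gave a mixed picture. Ccl2, which attracts monocytes, stood at 75.4 CPM in early Pr, 21.1 in cTEC and 48.5 in mTEC1, and Ccl7 at 49.2, 22.7 and 45.6. Of 13 compared chemokine and scavenger genes, 3 were at least 2-fold higher than in cTEC and 1 was lower, against 0.637% and 1.85% of all compared genes. The 3 included Ackr4, a marker of the label itself, and the lower gene was Ccl25, already counted among the cortical genes. Ccn2, a secreted target of the Hippo pathway, stood at 83.3, 39.3 and 115 CPM, so it was lowest in cTEC. Fras1, a basement membrane protein, stood at 139, 152 and 40.0 CPM, and Col4a6 at 128, 108 and 42.6, so both were shared by early Pr and cTEC.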
